A study of Mus musculus with 32 samples.

Results

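The genes described here encode the proteins of the mitochondrial ribosome and of the machinery that carries proteins into mitochondria. They were chosen by name alone: a gene was a member when its single annotated symbol began with Mrpl, Mrps, Timm or Tomm followed by a digit. Of 13661 genes with a single symbol on the arrays, 95 were members, of which 46 were Mrpl, 28 Mrps, 15 Timm and 6 Tomm genes. No measured difference between groups enters this rule, but the rule itself was chosen with earlier results of these data known. Only the mean level chose the 1 probe set that stands for a gene with several.

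Mitochondria carry their own small genome, and the few proteins it encodes, all subunits of the oxidative phosphorylation complexes, are made by a dedicated ribosome inside the organelle. The Mrpl genes encode its large subunit and the Mrps genes its small subunit, and all of these proteins are made in the cytosol and imported. Import starts at the TOM complex of the outer membrane (Tomm genes), with receptors that bind precursors and a pore that lets them through. The Timm genes encode the TIM23 and TIM22 translocases of the inner membrane and the small chaperones of the space between the membranes. Heart muscle depends on oxidative phosphorylation for contraction and is among the tissues richest in mitochondria.

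RNA of the cardiac ventricle was measured in 3 groups of mice on Affymetrix arrays of 2 types with different probe sets, called here the first and second type. The first group carried a cardiac specific AT1 transgene and was in cardiac failure (3 arrays per type), and the second carried the same transgene and had cardiac hypertrophy (8 arrays per type). The third consisted of wild type mice with a normal heart (5 arrays per type), with no transgene named. What AT1 abbreviates is not stated (a common reading is an angiotensin receptor), and the labels name no promoter, age, sex or strain. Nothing says that each array comes from its own animal, so the p-values below reflect the scatter of these samples only, which may in part be technical. Since RNA came from whole ventricle, fewer cells of a type and less RNA per cell cannot be told apart. All 10 listed cardiomyocyte markers were tested. Those of the first type summed to 54520 to 56350 in failure arrays, 49071 to 60774 in hypertrophy arrays and 52163 to 58902 in wild type arrays.

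Among the arrays, 3 of the hypertrophy group stood apart in median signal or in a control ratio. Replicate 1 had the lowest median signal of all arrays on both types (91.8 and 69.3). Its mean of the members minus all tested probe sets was -0.23 on the first type, the lowest of the 16 arrays. That value is the members' own level and not a control. Replicate 7 had a Gapdh 5′ to 3′ ratio of 0.0487 on the first type and replicate 6 one of 0.468, against 0.806 to 0.955 in wild type. The members' medians in the comparisons with hypertrophy are given with and without these arrays, but the spread within hypertrophy is given only with them.

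A signal here is the deposited intensity of a probe set on a linear scale, and differences were tested on its log2. Testing required that a probe set reach its own array's median on at least 3 of 16 arrays, and a difference is called when its adjusted p in limma is under 0.05. This left 71 of the 95 members for testing, 38 Mrpl, 18 Mrps, 10 Timm and 5 Tomm genes, 55 of them measured on the first type and 16 on its counterpart. Of all 95, 51 reached the array's median on all 16 arrays. The other 24 were not tested, and 4 of these (Mrpl53, Mrps5, Mrps22 and Timm9) were below the floor of the data on all 16 arrays. Their signals are bounds rather than levels.

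Promoters were read for 83 of the 95 members from RefSeq (GRCm38.p6), each from 250 bases before to 50 bases after an annotated start. On either strand, CCGGAAG, a core of the sites of ETS factors such as GABP, stood in 32 of 83 members (38.6%), against 9.93% of all 27025 genes and 16.7% of the 7524 genes tested on the arrays. AAGATGGC, a core of YY1 sites, stood in 13 (15.7%), against 3.19% and 5.10% of those genes. GCGCATGCG, the core of the nearly palindromic NRF1 site, stood in 5 (6.02%), against 1.95% and 3.62%, and TATAAA in 6 (7.23%), against 15.7% and 10.5%. Matches on both strands overlapped for GCGCATGCG in Mrpl9, Mrpl32 and Mrpl39 and for CCGGAAG in Timm10, and no member had CCGGAAG overlapping AAGATGGC. These are matches of letters, not sites shown to be bound. The following 4 promoters belong to members on which the results turn, Mrpl42, Timm23 and Mrps12 with failure arrays below wild type and Mrps18a with failure arrays above it. Each is given 5′ to 3′ on the strand of the gene, with CCGGAAG and AAGATGGC or their reverse complements in capitals.
Mrpl42, chr10:95501900-95502199, minus strand: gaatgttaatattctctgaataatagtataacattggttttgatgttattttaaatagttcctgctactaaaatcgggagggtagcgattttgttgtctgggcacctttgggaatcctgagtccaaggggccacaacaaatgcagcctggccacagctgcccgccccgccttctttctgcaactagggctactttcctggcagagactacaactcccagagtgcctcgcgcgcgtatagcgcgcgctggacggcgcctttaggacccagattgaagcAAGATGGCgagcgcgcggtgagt
Timm23, chr14:32201842-32202141, minus strand: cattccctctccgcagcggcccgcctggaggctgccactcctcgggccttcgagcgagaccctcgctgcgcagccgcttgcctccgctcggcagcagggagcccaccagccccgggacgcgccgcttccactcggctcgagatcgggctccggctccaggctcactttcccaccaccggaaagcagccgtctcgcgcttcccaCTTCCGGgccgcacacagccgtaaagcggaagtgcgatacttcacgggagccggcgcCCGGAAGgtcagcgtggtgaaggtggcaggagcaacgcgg
Mrps12, chr7:28741772-28742071, minus strand: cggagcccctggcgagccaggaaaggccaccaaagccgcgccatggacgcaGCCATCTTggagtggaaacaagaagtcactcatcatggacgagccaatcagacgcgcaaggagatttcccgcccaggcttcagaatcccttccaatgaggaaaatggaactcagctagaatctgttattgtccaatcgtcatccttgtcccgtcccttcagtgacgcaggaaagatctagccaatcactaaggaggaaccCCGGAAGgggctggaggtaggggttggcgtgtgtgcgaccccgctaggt
Mrps18a, chr17:46110754-46111053, plus strand: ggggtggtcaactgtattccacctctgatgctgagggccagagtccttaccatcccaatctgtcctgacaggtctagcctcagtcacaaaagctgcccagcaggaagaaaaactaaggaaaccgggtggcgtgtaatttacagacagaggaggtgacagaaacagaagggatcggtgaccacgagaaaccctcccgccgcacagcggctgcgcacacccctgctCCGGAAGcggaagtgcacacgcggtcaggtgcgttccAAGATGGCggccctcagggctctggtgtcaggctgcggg
In Mrpl42 the only match was AAGATGGC, which began 28 bases into the transcript. Timm23 had CCGGAAG in both orientations, from position -47 and from position 11, and no AAGATGGC. Mrps12 and Mrps18a each had both motifs.

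In failure against wild type, the members leaned towards lower signals without any single gene passing the test. The log2 difference was below 0 for 59 of 71 tested members, while 40.3% of all 13984 tested probe sets were below 0. Its median over the members was -0.16, with single genes from -0.66 (Mrpl42) to 0.29 (Mrps18a), beside a median of 0.05 over all tested probe sets. No member was called, against 0.250% of all tested probe sets, and the smallest adjusted p was 0.117 (Mrpl42). An unadjusted p under 0.05 was found for 8 members, 7 lower and 1 higher, against 11.4% of all probe sets, a share close to that of the members. Every failure array was below every wild type array for 9 members, against 4.34% of all probe sets, and above every wild type array for 1 member (Mrps18a), against 9.17%. These counts of lower members include Mrpl42 and Timm10b, for which wild type arrays alone met the filter for testing, as described below.

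Hypertrophy against wild type gave a similar number of lower signals and smaller differences. The log2 difference was below 0 for 60 of 71 members, against 48.0% of all tested probe sets, with a median of -0.09 beside 0.01 over all probe sets. Single genes ran from -0.73 (Mrpl34) to 0.45 (Timm29). No member was called, against 0.0858% of all probe sets. An unadjusted p under 0.05 was found for 7 members, 5 lower and 2 higher, against 7.12%. Only Mrpl42 had every hypertrophy array below every wild type array, against 0.136% of all probe sets, and no member had the reverse, against 0.300%. Mrpl42 passed the filter for testing only through wild type arrays, as described below. This comparison and the one of failure with wild type use the same wild type arrays, so their values are given side by side and not as support for each other.

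Between the transgenic groups fewer members were below 0. Failure against hypertrophy had 45 of 71 members below 0, against 41.5% of all probe sets, with a median of -0.06 beside 0.04. No member was called, against 0.0143% of all probe sets, and none had an unadjusted p under 0.05, against 9.36%. Mrps36 alone had every failure array below every hypertrophy array, against 0.686%, and no member had every failure array above, against 1.47%.

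**Figure D1:**
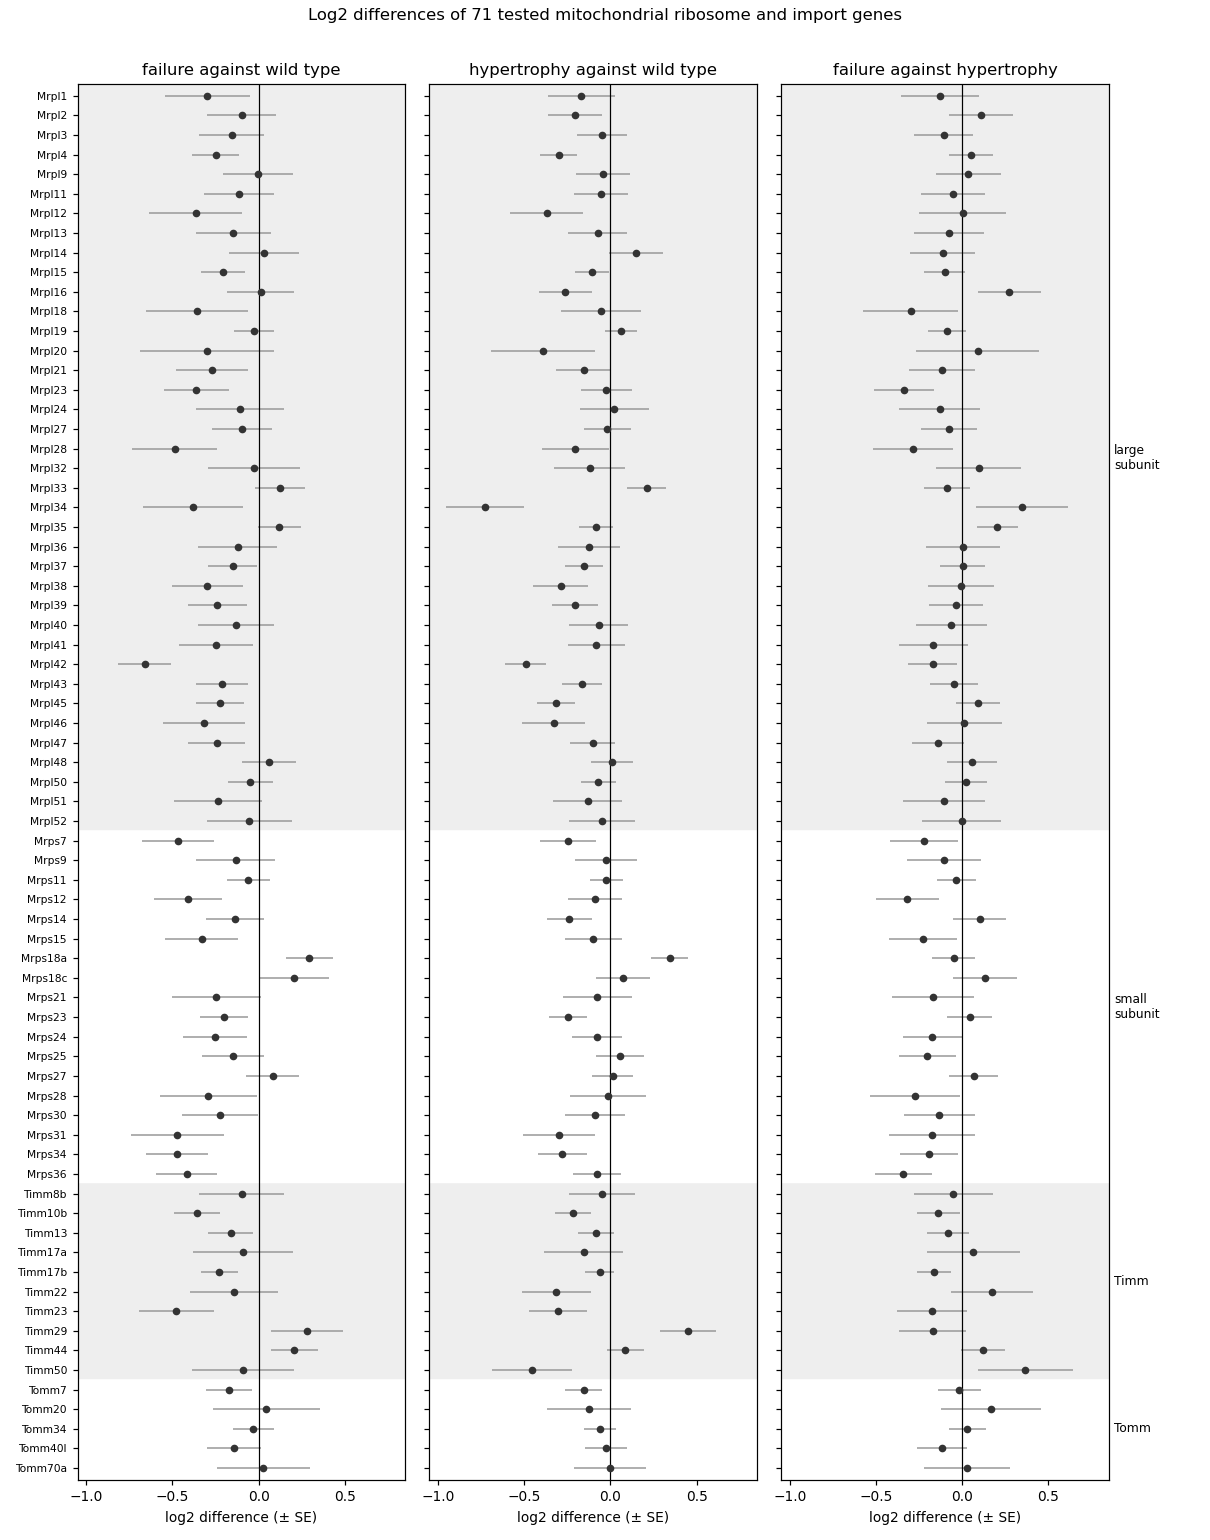
Log2 differences (horizontal axis, points) with standard errors (bars) of the 71 tested members in the 3 comparisons, ordered by subunit or membrane from top to bottom. In both comparisons with wild type most points lie left of 0, 59 of 71 for failure and 60 of 71 for hypertrophy. Mrps18a and Timm29 are among the members to the right in both, while their other tested probe sets, not drawn, lay below 0.

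These leans have limits that the arrays themselves show. With each array scaled to the same median, 65 of 71 members were below 0 in failure against wild type, but the share of all tested probe sets below 0 became 60.4% (first type) and 56.2% (second type), against 41.5% and 39.0% as deposited. In hypertrophy against wild type 61 of 71 members were then below 0, beside 55.5% and 54.2% of all probe sets (54.0% and 42.0% as deposited). In failure against hypertrophy 56 of 71 members were, beside 58.4% and 52.9% (39.1% and 43.9% as deposited). The 5′ to 3′ ratio of the Actb control probe sets, a sign of RNA integrity and labelling, differed with the groups on both types. On the first type it averaged 0.962 ± 0.175 in the 3 failure arrays, 0.701 ± 0.204 in the 8 hypertrophy arrays and 0.623 ± 0.0818 in the 5 wild type arrays (SD). On the second type it averaged 1.09 ± 0.21 in failure, 0.826 ± 0.278 in hypertrophy and 0.747 ± 0.143 in wild type. With the log2 of this ratio as a covariate, the members' median was -0.02 in failure against wild type, with 39 of 71 below 0. Under that covariate 34.0% of all probe sets of the first type and 40.8% of the second were below 0 (medians 0.11 and 0.06). Failure against hypertrophy gave 0.08 for the members, beside medians of 0.10 and 0.03 over all probe sets of the 2 types. In hypertrophy against wild type the members' median was then -0.06, with 53 of 71 below 0, beside 49.9% and 41.9% of all probe sets.

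The mean log2 signal of the 55 members of the first type was 7.85, 7.89 and 7.93 on the failure arrays. On the hypertrophy arrays it ran from 7.47 to 8.34 with a median of 7.95, and on the wild type arrays it was 8.02, 7.87, 8.26, 8.11 and 8.16. Failure arrays thus lay at the low end of the wild type range, level with wild type replicate 2, and hypertrophy arrays spread past both. For the 16 members of the second type the means were 7.09, 7.14 and 7.35 in failure, 6.81 to 7.49 in hypertrophy (median 7.24) and 7.27, 7.15, 7.30, 7.31 and 7.36 in wild type, so that failure replicate 3 stood among the highest wild type arrays.

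**Figure D2:**
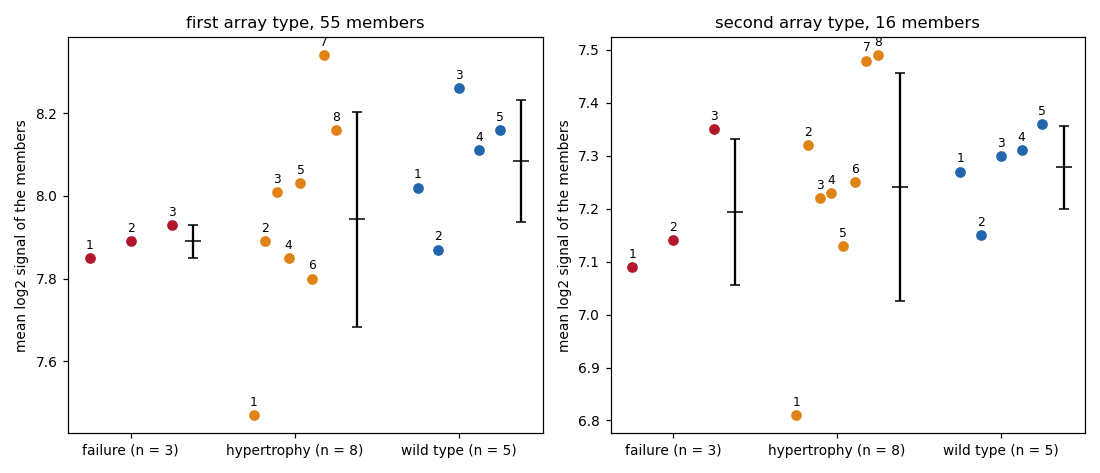
Mean log2 signal of the tested members (vertical axis) on each array of the first (left) and second (right) type, with replicate numbers above the points and bars for the mean and SD of each group. Hypertrophy replicate 1 is lowest on both types (7.47 and 6.81), and replicates 7 and 8 are the 2 highest hypertrophy arrays.

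Hypertrophy was the group in which the members varied most, a spread that was not recomputed without replicates 1, 6 and 7. The median SD of a member's log2 signal was 0.340 in hypertrophy on the first type, against 0.259 for all tested probe sets of that type. In failure it was 0.152 against 0.158, and in wild type 0.195 against 0.166. On the second type the values were 0.329 against 0.248 in hypertrophy, 0.240 against 0.170 in failure and 0.190 against 0.176 in wild type. Counted over both types, hypertrophy replicate 1 was the lowest of its group for 41 of 71 members and replicate 7 the highest for 39. Wild type replicate 2 was the lowest of its group for 39 members and replicate 3 the highest for 37. The labels do not say that same-numbered arrays of the 2 types hold the same RNA; on the first type alone these counts were 31, 32, 33 and 33 of 55.

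The comparisons between groups were recomputed without the hypertrophy arrays that stood apart in median signal or in a control ratio. Without hypertrophy replicate 1 the members' median in hypertrophy against wild type was -0.04, with 42 of 71 below 0, and without replicates 6 and 7 it was -0.17, with 62 of 71 below 0. In failure against hypertrophy the median was -0.13 without replicate 1 and -0.02 without replicates 6 and 7. On the first type replicate 1 had the lowest mean of the members in its group and replicate 7 the highest. Leaving them out shifts the members' level by itself, so these values are no check by array quality alone.

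**Figure D3:**
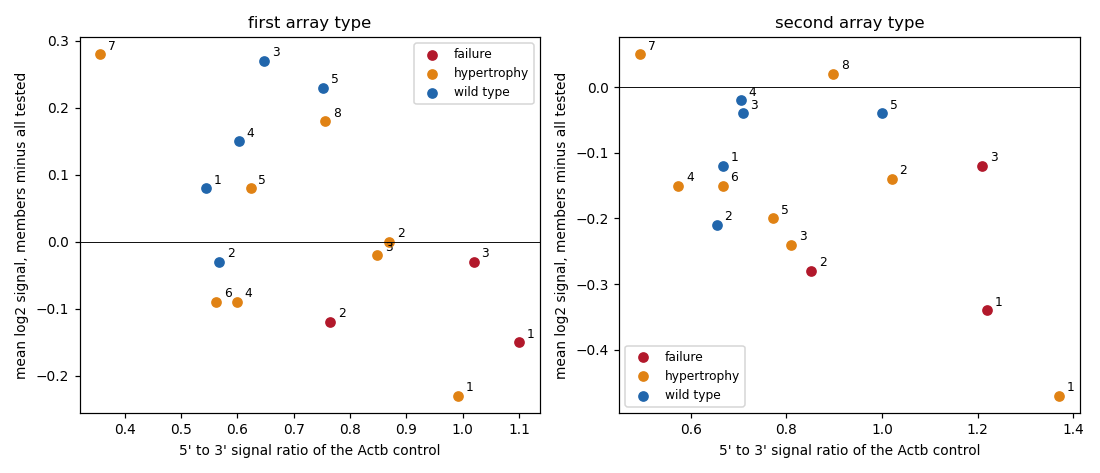
Mean log2 signal of the members minus that of all tested probe sets (vertical axis) against the Actb 5′ to 3′ ratio (horizontal axis) for each array of the first (left) and second (right) type, with replicate numbers beside the points. On the first type failure replicates 1 and 3 and hypertrophy replicate 1 have the highest ratios (1.10, 1.02 and 0.992) and members below all probe sets. Hypertrophy replicate 7 has the lowest ratio (0.357) and the highest members (0.28). Other low ratios stand with members on either side of 0, as in hypertrophy replicate 6 (0.563, members at -0.09) and wild type replicate 1 (0.545, members at 0.08).

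Among the large subunit genes, 33 of 38 tested members were below 0 in failure against wild type (median -0.18), 33 of 38 in hypertrophy against wild type (median -0.11) and 23 of 38 in failure against hypertrophy (median -0.05). The gene with the smallest p in failure against wild type was Mrpl42, a protein of this subunit. Its signal was 67.5, 64.0 and 81.9 in failure, 56.9 to 96.7 in hypertrophy (median 81.9) and 121, 99.3, 109.7, 112.4 and 118.1 in wild type. Both transgenic groups thus lay wholly below wild type. The log2 difference was -0.66 ± 0.15 (SE) in failure against wild type, with an unadjusted limma p of 0.000466 and an adjusted p of 0.117. In hypertrophy against wild type it was -0.49 ± 0.12 (adjusted p = 0.590), and failure differed from hypertrophy by -0.17 ± 0.14 (adjusted p = 0.736).

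Mrpl42 was also the member whose call moved most easily with the fit. In failure against wild type its adjusted p ran from 0.000176 to 0.585 over the alternatives, and it was under 0.05 with quantile normalisation, array weights, a fit of these groups alone, the Actb covariate, or hypertrophy replicate 7 left out. The probe set is dim: it reached the array's median on 3 of 16 arrays, the least that the filter allowed. All 3 were wild type arrays, so Mrpl42 passed the filter only through the group in which it is high. Its selection for testing was thus not independent of its difference, and with the filter of 8 arrays it was not tested.

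Mrpl34 had the lowest difference of any member in hypertrophy against wild type. This large subunit protein had signals of 123.9, 128.0 and 167.9 in failure, 68.5 to 182.2 in hypertrophy (median 99.7) and 171.1, 126.9, 212.2, 206.5 and 200.3 in wild type. Of 8 hypertrophy arrays 5 were below every wild type array, and the rest overlapped wild type. Its log2 difference was -0.73 ± 0.23 in hypertrophy against wild type (unadjusted p = 0.00490, adjusted p = 0.960), and -0.38 ± 0.29 in failure against wild type (adjusted p = 0.695).

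Mrpl23 and Mrpl28 were lower in failure than in either other group by their means. Mrpl23 averaged 214.4 ± 32.8 in failure, 274.9 ± 65.6 in hypertrophy and 274.3 ± 27.8 in wild type (SD, n = 3, 8 and 5), with log2 differences for failure of -0.36 ± 0.19 from wild type and -0.34 ± 0.17 from hypertrophy. These were -0.23 and -0.20 without failure replicate 1, the lowest array, and -0.09 and -0.12 with the Actb covariate. Mrpl28 had signals of 242.6, 269.8 and 324.5 in failure, 204.5 to 582.3 in hypertrophy (median 322.5) and 364.4, 284.6, 495.3, 376.1 and 456.8 in wild type. Only failure replicate 3 overlapped wild type, at replicate 2. The log2 difference of Mrpl28 in failure against wild type was -0.49 ± 0.25 (adjusted p = 0.518), and -0.21 with the Actb covariate.

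Mrpl12 is a large subunit protein that also binds the mitochondrial RNA polymerase. It averaged 377.3 ± 72.3 in failure, 385.9 ± 111.8 in hypertrophy and 499.7 ± 149.8 in wild type, with the same log2 difference of -0.37 in both comparisons with wild type (SE 0.27 for failure and 0.21 for hypertrophy). The wild type arrays alone ran from 326.1 to 655.9 and covered all failure arrays, so the difference did not exceed the spread between replicates. Mrpl18, also of the large subunit, differed by -0.36 ± 0.30 in failure against wild type and by -0.06 ± 0.23 in hypertrophy against wild type, and its other tested probe set by -0.05 ± 0.26 and -0.07 ± 0.21. Mrpl51 differed by -0.24 ± 0.26 and -0.13 ± 0.20 in these comparisons (-0.39 in failure without wild type replicate 2).

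Mrpl35 went the other way in failure, at 254.6, 265.5 and 297.4, against 193.4 to 276.7 in hypertrophy (median 235.6) and 221.8, 272.0, 240.2, 249.0 and 271.0 in wild type. All groups overlapped, and failure differed in log2 by 0.12 ± 0.13 from wild type and by 0.20 ± 0.12 from hypertrophy (adjusted p = 0.579). Mrpl43 and Mrpl45 were picked after their values were seen, because on 1 probe set of each failure and wild type did not overlap. Mrpl45 had signals of 184.8, 181.2 and 171.1 in failure, against 187.8, 209.9, 236.2, 210.0 and 204.2 in wild type. Its log2 difference was -0.22 ± 0.14, and that of Mrpl43 was -0.21 ± 0.15. Another tested probe set of Mrpl45 gave -0.56 ± 0.29, with failure and wild type overlapping.

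Small subunit genes had the lowest median in failure against wild type of the 4 name groups. Of 18 tested, 15 were below 0 in failure against wild type (median -0.23), 14 in hypertrophy against wild type (median -0.08) and 14 in failure against hypertrophy (median -0.17). Not every Mrps name marks a protein of the small subunit: in the mammalian ribosome the product of Mrps18a sits in the large subunit. That of Mrps36 is a subunit of the oxoglutarate dehydrogenase complex of the citric acid cycle.

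Mrps36 had the tightest failure group of the members described here. Its signals were 292.2, 284.5 and 295.0 in failure, 297.9 to 620.2 in hypertrophy (median 351.9) and 388.7, 368.4, 415.3, 376.7 and 393.7 in wild type. Failure thus lay below both other groups, clear of wild type and just under the lowest hypertrophy array. Failure differed in log2 by -0.42 ± 0.18 from wild type (unadjusted p = 0.0315, adjusted p = 0.410) and by -0.34 ± 0.17 from hypertrophy (adjusted p = 0.500). Without hypertrophy replicate 7, which had the highest value, the difference from hypertrophy was -0.23. With the Actb covariate the differences were -0.12 from wild type and -0.10 from hypertrophy.

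Mrps12, the counterpart of the bacterial protein of the decoding centre, had signals of 240.3, 234.3 and 211.6 in failure, 194.6 to 465.4 in hypertrophy (median 274.6) and 280.4, 245.9, 349.6, 319.2 and 331.7 in wild type. Failure lay below wild type, with wild type replicate 2 close to failure replicate 1. On the log2 scale failure differed by -0.41 ± 0.20 from wild type (adjusted p = 0.477) and by -0.32 ± 0.18 from hypertrophy (adjusted p = 0.582). With the Actb covariate they were -0.11 and -0.07.

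Mrps34, a small subunit protein, had signals of 400.1, 543.4 and 654.7 in failure, 502.8 to 729.4 in hypertrophy (median 614.6) and 718.2, 538.9, 820.4, 710.5 and 883.3 in wild type. Wild type replicate 2 again was the array that met the failure range. In failure against wild type the log2 difference was -0.47 ± 0.18 (unadjusted p = 0.0185, adjusted p = 0.337), and hypertrophy differed from wild type by -0.28 ± 0.14 (adjusted p = 0.960). Without failure replicate 1, the lowest array, the difference in failure was -0.28. Mrps7, a small subunit protein picked after its values were seen, had the same log2 difference of -0.47 ± 0.21 in failure against wild type. Its failure signals of 90.5, 119.1 and 115.5 were all below the lowest wild type signal of 124.8.

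Mrps18a was the exception with all failure arrays above wild type, but its probe sets disagreed. The representing probe set had signals of 585.7, 605.3 and 618.3 in failure, 509.7 to 852.0 in hypertrophy (median 602.6) and 441.4, 535.1, 463.7, 516.3 and 507.7 in wild type. Its log2 difference was 0.29 ± 0.14 in failure against wild type (unadjusted p = 0.0450, adjusted p = 0.449) and 0.34 ± 0.11 in hypertrophy against wild type (unadjusted p = 0.00492, adjusted p = 0.960). The other 3 tested probe sets of the gene all lay below 0 in both comparisons, with the lowest at -0.16 in failure and -0.24 in hypertrophy, so the gene has no settled direction. Mrps23, a small subunit protein of the second type, differed by -0.25 ± 0.11 in hypertrophy against wild type (unadjusted p = 0.0380, adjusted p = 0.482) and by -0.20 ± 0.14 in failure against wild type (-0.10 without failure replicate 3). Its other tested probe set gave -0.01 ± 0.21 and -0.22 ± 0.27.

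**Figure D4:**
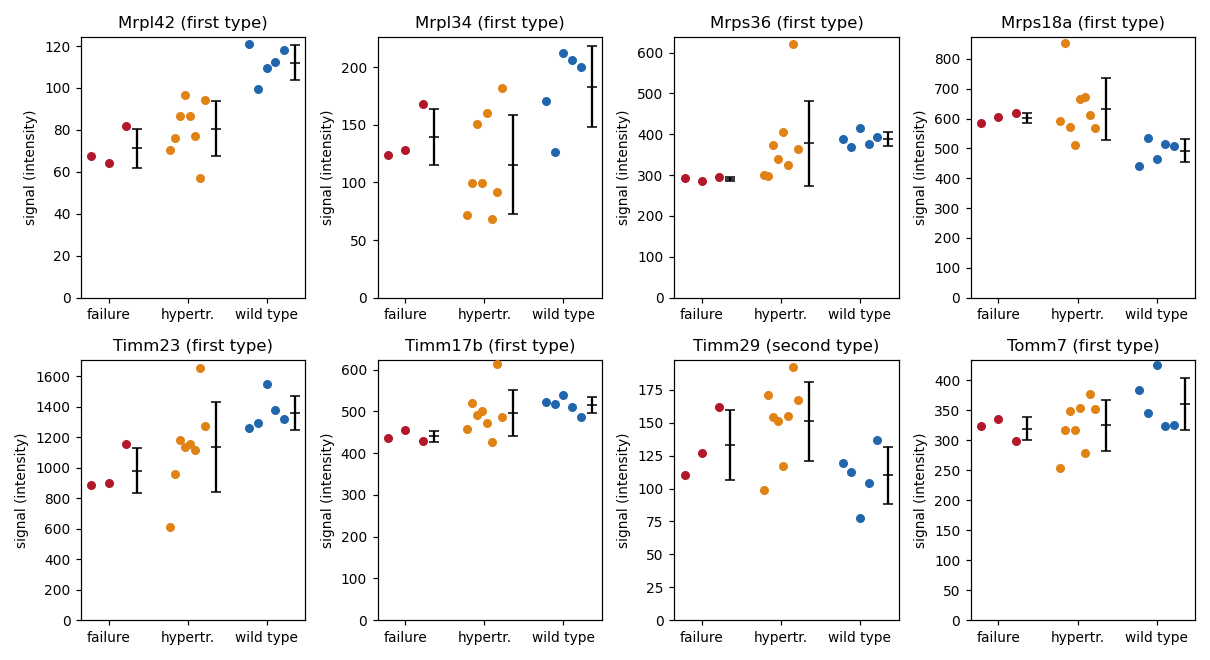
Signals (vertical axis, linear intensity from 0) of 8 members in failure, hypertrophy and wild type, with 1 point per array and bars for the mean and SD. Mrpl42 has both transgenic groups below wild type, Mrps36, Timm23 and Timm17b have failure below wild type, and Tomm7 and Timm29 have groups that overlap.

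The Timm genes had 8 of 10 tested members below 0 in failure against wild type (median -0.12), 8 in hypertrophy against wild type (median -0.12) and 6 in failure against hypertrophy (median -0.07). Timm23 encodes the channel of the translocase that takes up precursors with a cleavable presequence. Its signals were 888.1, 902.4 and 1152.8 in failure, 610.5 to 1655.5 in hypertrophy (median 1146.4) and 1260.5, 1292.0, 1546.3, 1379.8 and 1320.0 in wild type. All failure arrays were below wild type, and 6 of 8 hypertrophy arrays were too. The log2 difference was -0.48 ± 0.22 in failure against wild type (unadjusted p = 0.0415, adjusted p = 0.446) and -0.30 ± 0.17 in hypertrophy against wild type (adjusted p = 0.960). With the Actb covariate the difference in failure was -0.15, and without hypertrophy replicate 1 that in hypertrophy was -0.18.

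Timm17a and Timm17b are alternative partners of Timm23 in that channel. Timm17b had signals of 437.2, 454.7 and 429.1 in failure, 427.5 to 614.2 in hypertrophy (median 488.5) and 523.2, 518.6, 538.6, 510.4 and 487.1 in wild type. Failure and wild type did not overlap, and the log2 difference was -0.23 ± 0.11 (unadjusted p = 0.0498, adjusted p = 0.467). It was -0.06 ± 0.08 in hypertrophy against wild type, and -0.12 in failure with the Actb covariate. Timm17a averaged 370.8 ± 68.3 in failure, 370.4 ± 113.1 in hypertrophy and 393.3 ± 57.4 in wild type, differences smaller than the spread of any group.

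Timm44 and Timm50 also belong to this import route, Timm44 as the tether of the import motor on the matrix side and Timm50 as the receptor facing the space between the membranes. Timm44 averaged 255.7 ± 27.4 in failure, 237.0 ± 37.9 in hypertrophy and 221.0 ± 12.0 in wild type. Its log2 difference was 0.21 ± 0.14 in failure against wild type and 0.09 ± 0.11 in hypertrophy against wild type, and its other tested probe set gave 0.03 and -0.25. Without failure replicate 3 the difference in failure was 0.13. Timm50 averaged 111.5 ± 22.6 in failure, 90.7 ± 28.8 in hypertrophy and 117.7 ± 13.4 in wild type. In hypertrophy against wild type it differed by -0.46 ± 0.23 (unadjusted p = 0.0659, adjusted p = 0.539), while failure differed from hypertrophy by 0.36 ± 0.27. Without hypertrophy replicate 7, which had a signal of 36.5, these differences were -0.28 and 0.19, and with replicate 6 left out as well -0.19 and 0.10.

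Timm29, a subunit of the TIM22 carrier translocase, had the highest difference of any member in hypertrophy against wild type. Its signals were 110.5, 126.9 and 161.9 in failure, 98.9 to 192.1 in hypertrophy (median 154.7) and 119.3, 112.7, 77.8, 103.9 and 136.6 in wild type. The groups overlapped, with most hypertrophy arrays above wild type. The log2 difference was 0.45 ± 0.16 in hypertrophy against wild type (unadjusted p = 0.0130, adjusted p = 0.374) and 0.28 ± 0.21 in failure against wild type (0.13 without failure replicate 3, and 0.16 without wild type replicate 3). A second tested probe set of Timm29 gave -0.15 ± 0.24 and -0.26 ± 0.30, so its direction is not settled either.

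The small Tim proteins escort hydrophobic precursors between the membranes. Timm10b had signals of 83.3, 85.3 and 93.9 in failure, 80.3 to 120.8 in hypertrophy (median 97.8) and 108.0, 117.7, 117.8, 110.7 and 105.4 in wild type. Failure lay wholly below wild type, with a log2 difference of -0.36 ± 0.13 (unadjusted p = 0.0162, adjusted p = 0.335). No failure array reached its array's median, while wild type replicates 2, 3 and 4 did. The wild type arrays alone, where Timm10b is high, were thus enough for it to pass the filter of 3 arrays. Its probe set on the second type gave -0.12 ± 0.16. Timm9 and Timm10, which form the main chaperone complex of that space, were not tested. Timm9 was below the floor on all 16 arrays, and Timm10, with means of 75.0 ± 10.4 in failure, 66.7 ± 12.6 in hypertrophy and 63.3 ± 10.5 in wild type, never reached an array's median.

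At the outer membrane the medians were the nearest to 0 of the 4 name groups. Of 5 tested Tomm genes, 3 were below 0 in failure against wild type (median -0.03), all 5 in hypertrophy against wild type (median -0.06; with quantile normalisation Tomm70a was at 0.007) and 2 in failure against hypertrophy (median 0.03). Tomm20, the receptor for presequences, averaged 401.3 ± 13.7 in failure, 380.1 ± 130.2 in hypertrophy and 399.0 ± 98.2 in wild type. Its log2 difference of 0.04 ± 0.31 in failure against wild type was -0.05 with median scaling. Tomm70a, the receptor for carrier precursors, averaged 188.6 ± 20.7 in failure, 194.4 ± 63.9 in hypertrophy and 184.6 ± 13.7 in wild type. It differed by 0.03 ± 0.27 in failure against wild type (-0.07 with median scaling) and had a fold of 0.999 in hypertrophy against wild type.

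Tomm7, a small subunit that regulates assembly of the TOM complex, had signals of 324.6, 335.3 and 298.3 in failure, 253.3 to 377.9 in hypertrophy (median 333.5) and 384.6, 345.5, 425.7, 324.5 and 326.3 in wild type. The groups overlapped throughout, with log2 differences of -0.17 ± 0.14 in failure and -0.16 ± 0.11 in hypertrophy against wild type. Tomm34, a cytosolic cochaperone of import, differed by -0.03 ± 0.12 and -0.06 ± 0.09 in these comparisons. Tomm40l, a paralogue of the pore protein Tomm40, differed by -0.14 ± 0.16 and -0.03 ± 0.12. Tomm40 itself was not tested, since it never reached an array's median and was below the floor on 8 of 16 arrays. Tomm22, the central receptor, had no probe set with a single symbol and is not analysed here.

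Genes with several tested probe sets show how far single values can be read. Among 12 such members, the differences of all of a gene's probe sets had the same sign for 8 genes in failure and 5 in hypertrophy against wild type, and for 6 between failure and hypertrophy.

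Genes that work with these proteins were described from 3 lists. The list of mitochondrial translation factors and aminoacyl-tRNA synthetases also held other genes, such as Dap3, Ptcd3, Gadd45gip1, Lrpprc and Oxa1l. It had 26 of 43 listed genes tested, with 16 below 0 in failure against wild type (median -0.02) and 14 in hypertrophy against wild type (median -0.01), and none was called. Import and folding partners without a numbered Timm or Tomm symbol had 24 of 31 listed names tested, with 13 and 14 below 0 (medians -0.01 and -0.02), and none was called. That list also held proteases such as Lonp1 and Clpp, and it named Pam16 and its synonym Magmas separately. Regulators of mitochondrial biogenesis and mitochondrial transcription had 10 of 25 tested, with 5 and 6 below 0 (medians 0.04 and -0.03), and again none was called. The medians of these lists thus lay nearer to 0 than those of the Mrpl, Mrps and Timm members, a difference for which no test was made. Of all tested probe sets 40.3% and 48.0% were below 0 in these comparisons, with medians of 0.05 and 0.01. Each of the 3 lists thus also had a larger share below 0 than all tested probe sets in both comparisons.

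Tufm, the mitochondrial elongation factor that brings aminoacyl-tRNA to this ribosome, was picked from the first list after its values were seen. It averaged 642.5 ± 82.9 in failure, 728.5 ± 123.6 in hypertrophy and 991.1 ± 203.1 in wild type, with log2 differences of -0.61 ± 0.17 in failure against wild type (adjusted p = 0.199) and -0.44 ± 0.14 in hypertrophy against wild type (adjusted p = 0.960). The chaperones Hspd1 and Hspa9, which fold and pull in imported proteins, differed by 0.12 ± 0.22 and -0.06 ± 0.26 in failure against wild type.

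**Figure D5:**
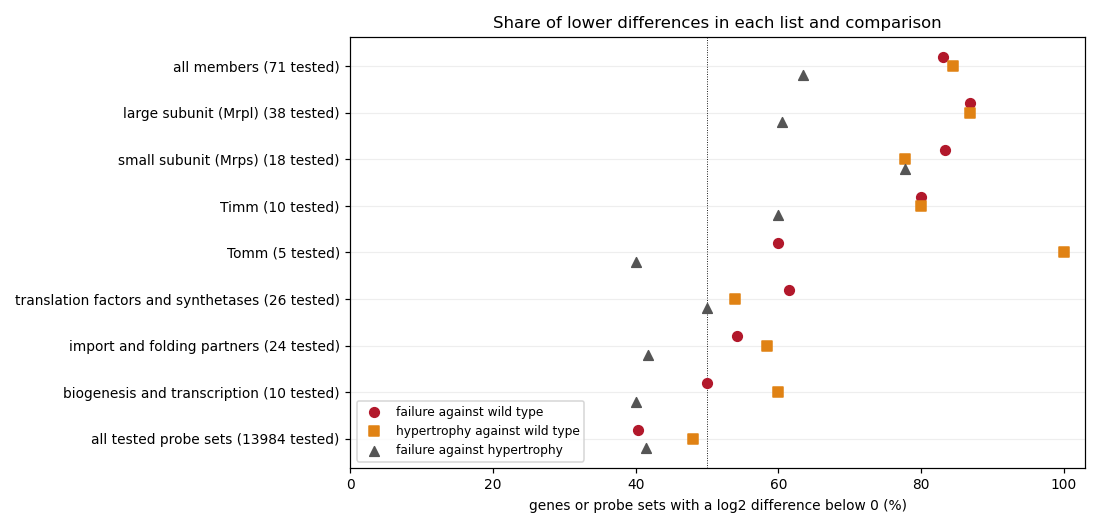
Share of genes or probe sets with a log2 difference below 0 (horizontal axis, percent) for the members, their 4 name groups, 3 lists of partner genes and all tested probe sets, with a symbol per comparison and a dotted line at 50%. The members stand at 83.1% in failure against wild type and 84.5% in hypertrophy against wild type, while all tested probe sets stand at 40.3% and 48.0%.

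Markers of other cell types were mostly above 0 in failure, without any call. So were most of all tested probe sets, of which 40.3% were below 0 in failure against wild type and 48.0% in hypertrophy against wild type. Fibroblast markers had 8 of 9 tested genes above 0 in failure against wild type, with a median log2 difference of 0.60, and 7 of 9 in hypertrophy against wild type, with a median of 0.13, and none was called. The summed signal of all 10 listed fibroblast genes was 5037 to 9494 in failure, 3572 to 8003 in hypertrophy and 4652 to 5733 in wild type, so the groups overlapped. Among them Postn averaged 515.9 ± 300.3 in failure, 152.5 ± 97.8 in hypertrophy and 130.3 ± 46.0 in wild type. All 7 tested macrophage markers and all 5 smooth muscle and pericyte markers were above 0 in failure against wild type, both with medians of 0.14, and 3 of 5 endothelial markers were (median 0.09). Cardiomyocyte markers had 6 of 10 above 0 (median 0.02). The endothelial and cardiomyocyte counts were near the share of all tested probe sets. Of 3 tested atrial markers 2 were above 0 (median 1.26), led by Nppa, which ventricle also makes under load. The part of these other cells in the members' lower signals was not tested.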

How the data were processed

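Ventricular RNA was measured on 32 Affymetrix arrays, 16 of each of 2 types, grouped by the labels' titles. Each deposited file gives a linear intensity per probe set. The authors' scaling and summarisation of these intensities are not given in the sources used. Before taking log2 of the deposited intensities, a floor was set at the 20th percentile of each type (39.5 and 27.5), which understates changes of dim probe sets. Tested were 6980 and 7004 probe sets, controls left out. Each type was fitted apart in R 4.3.3 with limma 3.58.1 (lmFit, then eBayes, 3 groups in 1 model, two-sided) and Benjamini-Hochberg adjustment was made within each type and comparison. The fit was run on simulated data with independent noise for each probe set and array, without shifts shared by the probe sets of an array. No rate of recovery for differences as small as those of the members is reported here. Precision is limited by the number of arrays: over the members, the median standard error was 0.20 (log2) in failure and 0.16 in hypertrophy against wild type.

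Names came from the platform annotation and were updated through gene identifiers to GRCm38.p6, which changed 12 and 20 symbols. Probe sets with several genes (396 and 178) or none were left out. A gene is represented by the probe set of highest mean log2 signal. Genes named are the main TOM and TIM proteins, Mrpl12, Mrpl42 and Mrps12, any called member, and for each name group the 2 highest in level and, per comparison, the 2 smallest p-values; others are marked as picked later. The members, lists, naming rule and alternatives were chosen with earlier results of these data known. No pair of arrays of a group held the same values: their correlations of log2 signals ran from 0.821 to 0.980. Same-numbered arrays of different groups did not deviate together on the median (correlation -0.068 and -0.064 over 11 pairs per type). Single pairs ran from -0.191 to 0.363 on the first type and from -0.183 to 0.141 on the second. This gave no sign of pairing by number, but so few pairs cannot exclude one, and the labels do not mention it. For the promoter search a 9-letter NRF1 core replaced a longer motif, a choice made after the sequences were seen.

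Alternatives were quantile and median scaling, floors at the 10th and 40th percentile, no filter or one of 8 arrays, array weights, robust estimation with a variance trend, a block for the replicate number, fits of only the compared groups, the Actb ratio as a covariate, hypertrophy replicates 6 and 7 left out, each array left out, and the first array type preferred for a gene on both. Figures were drawn with matplotlib 3.10.9.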

Additional observations from a re-analysis of the deposited data

Results flagged for a closer look

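Among 54 sets of arrays tested for a single array far from the others, 4 had one, and chance gives about 1 in 20. The sets were the signals of each tested named gene and the members' mean level on each type, in hypertrophy and in wild type. The failure group was not tested in this way. Mrpl51 was 456.6 in wild type replicate 2, well below the other 4 wild type arrays at 748.9 to 802.1. Mrps36 was 620.2 in hypertrophy replicate 7, above the other hypertrophy arrays at 297.9 to 404.9. Timm17a was 142.1 in hypertrophy replicate 1, below the others at 348.4 to 558.1, and 494.3 in wild type replicate 3, above the others at 355.7 to 382.7. Hypertrophy replicates 1 and 7 are the arrays named above for their low median signal and low Gapdh ratio.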

How the results depend on the processing

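The number of members called was 0 in all 3 comparisons on both types under every alternative run, except in failure against wild type on the first type. There it was 12 with array weights (Timm23, Timm10b, Mrpl4, Mrpl23, Mrpl28, Mrpl42, Mrps7, Mrps12, Mrps18a, Mrps31, Mrps34 and Mrps36) and 2 with only the groups compared (Mrpl42 and Mrps36). It was 1 (Mrpl42) with quantile normalisation, the Actb covariate or hypertrophy replicates 6 and 7 left out, and 0 to 1 with single arrays left out, the 1 being Mrpl42 without hypertrophy replicate 7. Of all 6980 probe sets of that type, 1002 were called with array weights, 122 with only the groups compared, 30 with quantile normalisation, 42 with the Actb covariate and 34 without hypertrophy replicates 6 and 7, against 10 in the fit reported. The cause was not tested. In the fit reported, 8 members of the first type and 0 of the second had an unadjusted p under 0.05 in this comparison.

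The members' median in failure against wild type was below 0 under every alternative, from -0.250 (median scaling) to -0.023 (Actb covariate), and from -0.223 to -0.143 with single arrays left out. In hypertrophy against wild type it ran from -0.211 (replicate block) to -0.056 (Actb covariate), and from -0.162 (without hypertrophy replicate 7) to -0.042 (without hypertrophy replicate 1). In failure against hypertrophy it turned to 0.069 with the replicate block and 0.076 with the Actb covariate, where the medians over all probe sets were 0.096 and 0.104 (first type) or 0.038 and 0.031 (second type), and ran from -0.133 to -0.013 with single arrays left out. The replicate block gave -0.155 in failure against wild type. Whether the replicate numbers pair samples is not known.

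Of 58 differences of named genes, 10 changed sign under some setting other than leaving out an array, all without a call. With the Actb covariate, Mrpl18 was 0.219, Mrpl51 0.004, Timm17a 0.350 and Tomm34 0.045 in failure against wild type, and Mrpl18 0.054, Mrpl23 0.029 and Tomm70a 0.104 in hypertrophy against wild type. With array weights, Tomm20 was -0.078 in failure against wild type, and Mrpl18 0.021 and Tomm70a 0.067 in hypertrophy against wild type. With median scaling, Tomm20 was -0.049 and Tomm70a -0.066 in failure against wild type. With quantile normalisation, Tomm34 was 0.004 and Tomm70a -0.035 in failure and Tomm70a 0.007 in hypertrophy against wild type. With the replicate block, Tomm34 was 0.010 in failure and Timm44 -0.021 in hypertrophy against wild type.

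With single arrays left out, 12 of the 58 changed sign. In failure against wild type, Timm17a ran from -0.215 to 0.056, Timm50 from -0.248 to 0.024, Tomm20 from -0.091 to 0.158, Tomm34 from -0.110 to 0.047 and Tomm70a from -0.058 to 0.093. In hypertrophy against wild type, Mrpl18 ran from -0.186 to 0.110, Mrpl23 from -0.111 to 0.042, Timm17a from -0.252 to 0.030, Tomm20 from -0.259 to 0.050, Tomm40l from -0.072 to 0.026 and Tomm70a from -0.110 to 0.162. Tomm20 ran from -0.006 to 0.269 in failure against hypertrophy. The rest of the 58 kept their sign under every alternative run. For differences outside these 58, values under the alternatives are not given here, apart from the calls listed above. Examples are those of Mrps7, Mrpl43, Mrpl45 and Tufm or of Mrpl42 between failure and hypertrophy. Dim probe sets such as Mrpl42 are limited by their low signal.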
